A study of Rattus norvegicus with 100 samples.

Results

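The genes described here encode enzymes that oxidise or reduce aldehydes, alcohols and retinoids: the aldehyde dehydrogenases (symbols starting with Aldh), the alcohol dehydrogenases (Adh followed by a digit), the aldo-keto reductases (Akr, without Akr1d1) and the short-chain dehydrogenases named Dhrs or Rdh. They were picked out by symbol, in a choice made with earlier results of these data known. Each gene was represented by 1 probe set, the one with a single gene symbol and the highest mean over all arrays. Of 13439 genes with such a probe set, 52 belonged to the family. A filter on low values (a log2 intensity above 5 on at least 3 arrays) was passed by 40 of the 52, against 8843 of all 13439 genes, and only those 40 were tested. A member can pass that filter through a single group in which it is high. Aldh3a1 would not have passed it on the arrays at 0 µM alone. The 12 that did not pass were Adh6a, Adh7, Akr1b7, Akr1c15, Akr1c3, Aldh1a3, Aldh1b1, Aldh3b3, Dhrs7c, Dhrs9, Rdh12 and Rdh13. Just inside the filter, the third-highest array of Aldh1a2 read 5.43 and that of Rdh5 5.47. Just outside it, that of Aldh1b1 read 4.88 and that of Akr1c15 4.51.

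Rat hepatocytes of 4 biological replicates (Rs627, Rs628, Rs631 and Rs632, read here as 4 rats, which the labels do not spell out) were grown in primary culture (plated on collagen IV, overlaid with Geltrex, in William's E medium) and exposed to GW7647, a synthetic agonist of the nuclear receptor PPARα. The cultures received 0.001, 0.01, 0.1, 1 or 10 µM of the agent or 0 µM for 2, 6, 12, 24 or 72 h, and each gave 1 array, 100 arrays in 30 groups of 2 to 4. The labels name neither the vehicle nor the strain, sex or age of the rats, and each array stands for 1 replicate. All values are log2 intensities as deposited, so a difference of 1 is a doubling.

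Alcohols and retinol are oxidised to aldehydes and retinal by alcohol and retinol dehydrogenases, and aldehyde dehydrogenases carry the product on to an acid, such as retinoic acid from retinal or a fatty acid from a fatty aldehyde. Reductases of the Akr, Dhrs and Rdh groups run the opposite way and turn carbonyls back into alcohols. Liver is a main site of these reactions, where they clear ethanol, lipid peroxidation products and dietary or foreign carbonyls and set the supply of retinoic acid, the ligand of a nuclear receptor that pairs with RXR as PPARα does.

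Hepatocyte markers were present throughout: all 7 hepatocyte markers with a probe set were above log2 5 on all 100 arrays, with Alb at 13.61 to 13.81. Of 7 macrophage markers Cd68 alone exceeded 5, on 24 arrays. Of 8 stellate cell and fibroblast markers 5 did so, Col3a1 on 99 arrays, Acta2 on 97, Col1a2 on 83, Rgs5 on 19 and Pdgfrb on 6, and Col1a1, Des and Lrat on none. Of 6 endothelial markers Eng did so on 4 arrays and Pecam1, Kdr, Stab2, Lyve1 and Tek on none. Of 5 bile duct markers Epcam did so on all 100 arrays, Krt19 on 36, Spp1 on 34, Krt7 on 23 and Sox9 on none. The arrays' 75th percentiles ran from 6.42 to 7.27, and 5 arrays lay under 6.6, 2 of them among the 4 at 1 µM and 24 h. After subtracting each group's mean, arrays of 1 rat correlated at a median of 0.62 and arrays of different rats at -0.23, and 95 of 100 arrays resembled their own rat most. The 12 h arrays at 0 µM labelled Rs627 and Rs628 each resembled the other rat most. Both belong to 1 group, so the means of that group do not depend on which is which. Every 12 h value from the fit with the rat as a block does rest on these 2 labels. So do fits without Rs627 or without Rs628, at 12 h and averaged over the times. Arrays of Rs627 at 0.1 µM and 24 h and at 0.001 and 0.01 µM and 72 h also resembled Rs628 most. Leaving both out leaves the 1 array of Rs631 at 0 µM and 12 h, which is then assumed to vary like the other groups. Calls at 12 h on that single array are not counted here.

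At 1 µM most calls in the family came at 24 and 72 h, and they went in both directions. No member passed the test at 2 h (limma over all genes, 0 at an unadjusted p under 0.05, against 0.373% of all genes called). At 6 h 2 members rose and 0 fell (2.04% of all genes called, 1.73% higher and 0.305% lower). At 12 h 3 rose and 1 fell (5.41% of all genes called, 3.96% higher and 1.45% lower). At 24 h 8 rose and 8 fell, where 29.6% of all genes were called, 7.06% higher and 22.6% lower. At 72 h 13 rose and 6 fell, where 26.8% of all genes were called, 11.3% higher and 15.5% lower. With the rat as a block the counts were 0, 4, 9, 26 and 25 from 2 to 72 h, and 0.837%, 4.7%, 11.3%, 49.8% and 40.3% of all genes were called. The members gained in this way were Akr1c14 and Aldh1a1 at 6 h and Adh1c, Akr1e2, Aldh1l1, Dhrs7 and Rdh7 at 12 h. At 24 h they were Adh1c, Akr1b1, Akr1c13, Akr1c19, Aldh1a2, Aldh1l1, Aldh5a1, Aldh7a1, Dhrs3 and Rdh11, and at 72 h Akr1b1, Akr1c19, Akr7a2, Aldh18a1, Aldh6a1 and Dhrs13. Of the 40 members, 22 passed at 1 or more times at 1 µM (39.8% of all genes did), or 29 with the block (61.6%), and without the block 0 passed in opposite directions at different times. At 72 h the median change was 0.13 over the 40 members and -0.06 over all genes tested.

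**Figure D1:**
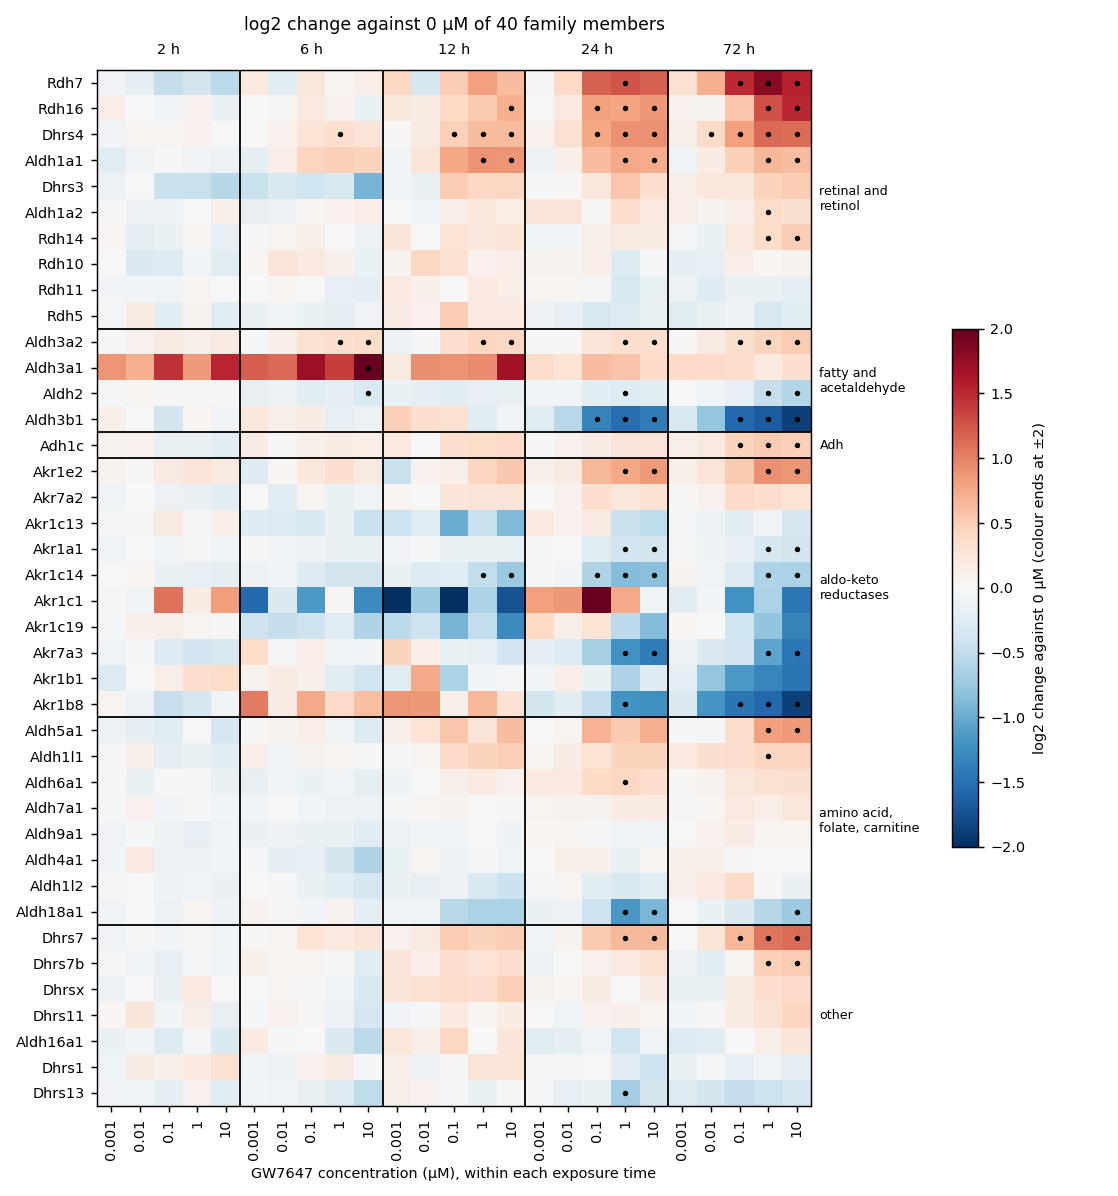
Mean log2 change against 0 µM of the 40 members (rows, grouped by role) at each exposure time and GW7647 concentration in µM (columns, low to high within each time). Dots mark an adjusted p under 0.05. The 19 dots at 1 µM and 72 h include 6 retinal and retinol enzymes that rose and 4 aldo-keto reductases that fell, where 26.8% of all genes were called. The 2 h block holds 0 dots.

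Calls at 72 h rested on all rats to different degrees. With each rat left out in turn, 12 of the 19 calls at 72 h held: Dhrs4, Rdh7, Rdh16, Dhrs7, Akr1e2, Aldh3a2 and Adh1c among the rises, and Aldh3b1, Akr1b8, Akr1c14, Aldh2 and Akr1a1 among the falls. The 7 others, Akr7a3, Aldh1a1, Aldh1a2, Aldh1l1, Aldh5a1, Dhrs7b and Rdh14, lost the call without at least 1 rat. At 24 h 7 of the 16 calls held in this way, those of Dhrs4, Rdh16, Aldh1a1, Akr1a1, Akr1c14, Aldh18a1 and Aldh3b1. The 24 h values also lie on a general shift: the median of all genes tested was -0.23 at 1 µM against 0 µM, and without the arrays of low signal 13 members were called, 8 higher and 5 lower. The share of all genes called without those arrays is not given here, so that count does not set the family apart from other genes. Under quantile normalization 10 members rose and 7 fell at 24 h, and 907 of the 2298 genes called rose. The part of array signal in the 24 h falls was not tested beyond that.

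The promoters are shown for 3 members that the results turn on: Dhrs4, which had the smallest adjusted p at 1 µM and 72 h, Rdh7, which rose there, and Aldh3b1, which lay below log2 5 on every 1 µM array at 72 h. Each is the 250 bases before the start of the gene in RefSeq (build GRCr8), read 5′ to 3′ on the gene's strand. They lie at chr15:32936284-32936533 on the plus strand for Dhrs4, chr7:65574619-65574868 on the minus strand for Rdh7 and chr1:210591816-210592065 on the minus strand for Aldh3b1. Capitals mark AGGTCA on either strand, the half-site bound by PPARα with RXR and by many other nuclear receptors.
Dhrs4: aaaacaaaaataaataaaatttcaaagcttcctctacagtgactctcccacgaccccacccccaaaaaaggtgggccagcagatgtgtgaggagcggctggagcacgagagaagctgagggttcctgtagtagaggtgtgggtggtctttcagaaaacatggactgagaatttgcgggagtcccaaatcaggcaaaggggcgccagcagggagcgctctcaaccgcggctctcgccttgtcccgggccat
Rdh7: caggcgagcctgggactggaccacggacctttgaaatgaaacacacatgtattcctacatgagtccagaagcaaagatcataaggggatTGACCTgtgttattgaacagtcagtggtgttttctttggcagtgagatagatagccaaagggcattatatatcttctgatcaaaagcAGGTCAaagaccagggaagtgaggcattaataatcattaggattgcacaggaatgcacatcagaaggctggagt
Aldh3b1: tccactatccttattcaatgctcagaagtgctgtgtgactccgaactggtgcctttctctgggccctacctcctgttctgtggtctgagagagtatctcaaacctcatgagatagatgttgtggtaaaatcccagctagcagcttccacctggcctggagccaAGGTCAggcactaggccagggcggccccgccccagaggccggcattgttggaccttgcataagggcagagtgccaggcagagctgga

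The Rdh7 promoter holds AGGTCA 2 times, at bases -161 to -156 on the opposite strand and -74 to -69 on the gene's own strand, and that of Aldh3b1 holds it at -87 to -82. Rdh7 rose and Aldh3b1 fell, and Dhrs4, which also rose, has no match in this window. Over both strands AGGTCA stands in 14.1% of all 33469 promoters of this length and in 3 of the 32 tested members with an entry, the third being Akr7a2, which at 1 µM passed at 72 h only in the fit with rat blocks (adjusted p = 0.0167) and in that of the compared times alone (0.0491, against 0.0803 over all times). The direct repeat AGGTCANAGGTCA, 2 half-sites with 1 base between, stands in 0.0508% of all promoters and in 0 members, and its relaxed form AGGNCANAGGNCA in 0.368% and in 0 members. A match is a description of letters, and these windows leave out any site farther away. Promoters of Akr1b1, Akr1c1, Aldh18a1, Aldh1l2, Aldh2, Aldh3a1, Rdh10 and Rdh16 are not shown or searched here.

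The enzymes of retinal and retinol gave 6 of the 13 rises at 72 h. Of 10 tested, 6 rose and 0 fell, with a median change of 0.41, and at 24 h 4 rose and 0 fell (median 0.45). Of all genes tested, 11.3% rose and 15.5% fell at 72 h, and 7.06% rose and 22.6% fell at 24 h. Dhrs4, a peroxisomal reductase of retinal and other carbonyls, read 11.03, 10.81, 10.94 and 10.81 at 1 µM and 72 h in Rs627, Rs628, Rs631 and Rs632, against 9.93, 9.67, 9.87 and 9.62 at 0 µM. Every treated array lay above every array at 0 µM, and the same was true at 6, 12 and 24 h. The change at 6, 12, 24 and 72 h was 0.33, 0.64, 0.91 and 1.13 (at 72 h SE 0.08, 2.18-fold, adjusted p = 5.03e-19), and 0.08 at 2 h, where it did not pass. The change at 72 h exceeded that at 2 h by 1.04 (adjusted p = 3.34e-09). The call at 6 h was lost without any 1 rat (adjusted p from 0.0579 without Rs628 to 0.11 without Rs631, with 0.0815 without Rs627 and 0.0628 without Rs632). A further, dim Dhrs4 probe set did not pass the filter, and averaging both gave a rise of 0.64 at 72 h.

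Rdh7 and Rdh16 are microsomal enzymes that oxidise retinol and some steroids, and in the RefSeq order they are near neighbours on chromosome 7. Rdh7 read 10.34, 9.41, 9.24 and 10.25 at 1 µM and 72 h, in the rat order above, against 8.67, 7.47, 7.62 and 8.28 at 0 µM. The groups did not overlap, and Rs627 and Rs632 were the higher rats in both. The rise was 1.80 (SE 0.42, 3.49-fold, adjusted p = 5.94e-04). At 24 h Rdh7 read 10.08, 9.66, 8.71 and 9.75 at 1 µM, against 9.06, 7.76 and 8.07 at 0 µM in Rs627, Rs631 and Rs632. These groups overlap, yet each of the 3 rats with both arrays was higher at 1 µM, and the rise of 1.26 (adjusted p = 0.031) was lost without Rs628 (0.0509), Rs631 (0.107) or Rs632 (0.316). Averaged over the times the rise was 0.71 (adjusted p = 0.00355) and 0.63 without Rs632 (0.0882). At 12 h its 0 µM arrays labelled Rs627 and Rs628 read 7.34 and 8.90, where at 6 h those of the same labels read 8.66 and 7.89.

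Rdh16 read 8.75, 7.90, 8.18 and 8.43 at 1 µM and 72 h, against 6.75, 7.06, 7.12 and 7.20 at 0 µM. All 4 treated arrays lay above the 4 at 0 µM, with a rise of 1.28 (SE 0.19, 2.43-fold, adjusted p = 1.75e-07). It was 0.79 at 24 h (adjusted p = 0.003), 0.53 at 12 h, where it did not pass (at 10 µM 0.71, which did), and 0.09 at 2 and 6 h. The changes of Rdh7 and Rdh16 at 72 h exceeded those at 2 h by 2.18 (adjusted p = 0.0209) and 1.19 (adjusted p = 0.00428). For Rdh7 the rats differ between the 2 h groups, with Rs627 missing at 1 µM and Rs628 at 0 µM, and with the rat as a block the difference was 1.84. Without Rs628 or Rs632 the Rdh7 difference no longer passed (adjusted p = 0.0812 and 0.182), nor did that of Rdh16 without Rs627 (0.0564) or Rs631 (0.0676).

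Aldh1a1, the cytosolic dehydrogenase that makes retinoic acid from retinal, rose at 12, 24 and 72 h. At 12 h it read 11.77, 11.78, 11.66 and 11.76 at 1 µM, against 10.94, 11.06 and 10.53 at 0 µM in the arrays labelled Rs627, Rs628 and Rs631. Treated arrays stood close together and above all arrays at 0 µM. The change was 0.47 at 6 h (adjusted p = 0.319, and 0.0474 in the fit with rat blocks), 0.90 at 12 h (SE 0.20, adjusted p = 0.00115), 0.75 at 24 h and 0.67 at 72 h (adjusted p = 0.00374, and 0.0767 without Rs628). Without arrays at repeated plate positions the 12 h value was 0.73 (adjusted p = 0.079). Whether the 12 h value differed from the 72 h value was not tested.

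Aldh1a2, a further retinal dehydrogenase, and Rdh14, a reductase of retinal, rose by 0.37 and 0.36 at 72 h (adjusted p = 0.0281 and 0.0239). Aldh1a2 sat near the floor of log2 5, at 5.32 ± 0.12 at 1 µM and 4.95 ± 0.14 at 0 µM (SD, n = 4 each). Its call was lost without Rs627 (0.137), Rs631 (0.088) or Rs632 (0.109), and that of Rdh14 without Rs627 (0.104) or Rs632 (0.264). Dhrs3, a retinal reductase, and Rdh10, the main retinol oxidase of the embryo in mouse, did not pass at 72 h, with changes of 0.44 (adjusted p = 0.278) and 0.04 (0.89). Rdh11 and Rdh5 changed by -0.14 and -0.32 without passing. In the fit with rat blocks Dhrs3 passed at 24 h with a change of 0.68 (adjusted p = 0.0128) and Rdh11 with -0.32 (0.0468), as both did without Rs628 (0.0229 and 0.0137).

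**Figure D2:**
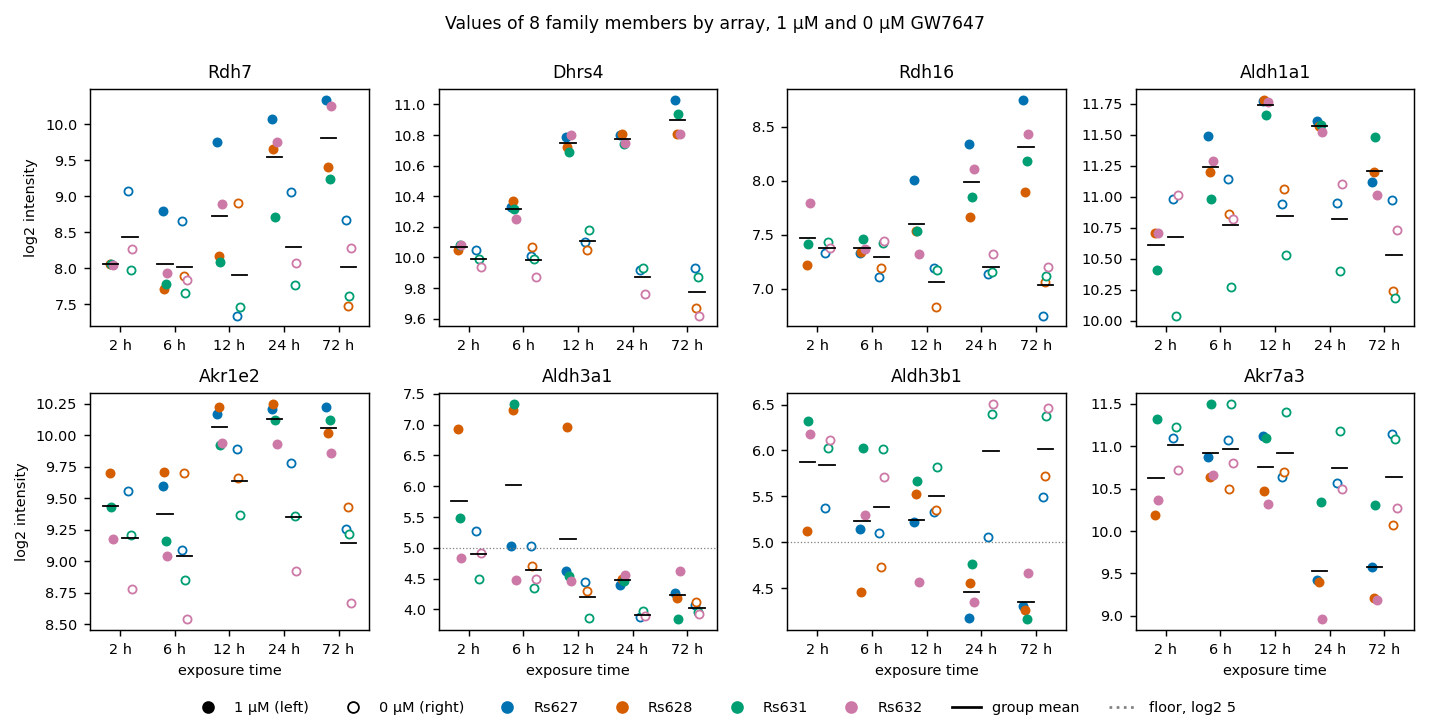
Log2 intensity of 8 members on each array at 1 µM (filled, left) and 0 µM (open, right) by exposure time, coloured by rat, with group means as bars and log2 5 dotted where it falls in the panel. The Dhrs4 groups do not overlap at 6, 12, 24 or 72 h, and the 1 µM arrays of Aldh3b1 lie below 5 at 24 and 72 h. Aldh3a1 is high on some arrays at 2 and 6 h and on 1 array at 12 h.

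The fatty and acetaldehyde dehydrogenases split. Of 4 tested, Aldh3a2 rose and Aldh2 and Aldh3b1 fell at 72 h, where 11.3% of all genes rose and 15.5% fell. Aldh3a2, the fatty aldehyde dehydrogenase that is defective in human Sjögren-Larsson syndrome, passed at 6, 12, 24 and 72 h, with rises of 0.33, 0.43, 0.34 and 0.44. It averaged 12.43 ± 0.05 at 1 µM and 11.99 ± 0.11 at 0 µM at 72 h (SD, n = 4 each), with no overlap (adjusted p = 4.16e-05). The smaller calls were lost with some rats left out. At 6 h the change was 0.33 without Rs628 (adjusted p = 0.0907) or Rs631 (0.146) and 0.30 without Rs632 (0.61). At 12 h it was 0.39 without Rs631 (0.0512). At 24 h it was 0.24 without Rs631 (0.152) and 0.29 without Rs632 (0.183). The 24 h call was also lost without the arrays of low signal (0.27, adjusted p = 0.0945) or of repeated positions (0.27, adjusted p = 0.104). Against the median shift of all genes at 24 h, the change of Aldh3a2 there was 0.56.

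Aldh2, the mitochondrial enzyme that oxidises acetaldehyde, read 9.93, 10.02, 10.07 and 9.81 at 1 µM and 72 h, against 10.33, 10.47, 10.40 and 10.46 at 0 µM. The groups were narrow and apart, and the fall was small, at -0.46 (SE 0.07, adjusted p = 4.4e-07). At 24 h the change was -0.26 (adjusted p = 0.00877), or -0.03 relative to the median of all genes. That call was lost without Rs627 (0.0964), Rs631 (0.0766) or Rs632 (0.0545). It was also lost in a fit of the compared times alone (0.062) and without the arrays of low signal (0.0505) or of repeated positions (0.0567). The change at 72 h minus that at 2 h was -0.48 (adjusted p = 0.00195).

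Aldh3b1, which oxidises medium- and long-chain aldehydes from lipids, fell at 24 and 72 h. At 72 h it read 4.30, 4.26, 4.16 and 4.67 at 1 µM, against 5.49, 5.72, 6.38 and 6.46 at 0 µM. All treated arrays lay below the floor of log2 5 and all arrays at 0 µM above it, so the fall is printed as at least 2.02-fold, beside a log2 change of -1.67 as measured (SE 0.32, adjusted p = 3.5e-05). At 24 h it read 4.17, 4.56, 4.76 and 4.35 at 1 µM, against 5.06, 6.40 and 6.51 at 0 µM in Rs627, Rs631 and Rs632, again without overlap (log2 change -1.53, adjusted p = 6.03e-04). Changes at 2, 6 and 12 h were 0.04, -0.16 and -0.25, and none passed. The change at 72 h minus that at 2 h was -1.70 (adjusted p = 0.018), and it did not pass without Rs627 (0.0783), Rs631 (0.231) or Rs632 (0.114).

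The aldo-keto reductases gave 4 of the 6 falls at 72 h. Of 10 tested, 1 rose and 4 fell, with a median change of -0.62, and the same counts, 1 and 4, stood at 24 h (median -0.47). Of all genes tested, 15.5% fell at 72 h and 22.6% at 24 h. Over the whole family 15% of members fell at 72 h and 20% at 24 h, near those shares. Akr7a3, the rat reductase of the aflatoxin B1 dialdehyde, read 9.58, 9.21, 10.31 and 9.19 at 1 µM and 72 h, against 11.14, 10.07, 11.08 and 10.27 at 0 µM. Each rat was lower at 1 µM than at 0 µM, but the groups overlap because Rs631 at 1 µM was above Rs628 and Rs632 at 0 µM. The change was -1.06 at 72 h (SE 0.34, adjusted p = 0.0119) and -1.21 at 24 h (adjusted p = 0.00859), and it was lost at 72 h without Rs627 (0.172) or Rs632 (0.0639), and at 24 h without Rs627 (0.0504) or Rs632 (0.106).

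Akr1c14, the rat 3α-hydroxysteroid dehydrogenase, read 9.46, 9.33, 9.65 and 9.48 at 1 µM and 72 h, against 10.06, 9.97, 10.19 and 10.13 at 0 µM. The groups were apart, with a change of -0.61 (adjusted p = 9.65e-05), and of -0.86 at 24 h (adjusted p = 1.07e-06). At 6 h its change of -0.37 did not pass (adjusted p = 0.154), but did with the rat as a block (0.0179) or in a fit of the compared times alone (0.0234). Its 3 probe sets gave -0.61, -0.91 and -0.77 at 72 h. At 12 h the change of -0.49 passed (adjusted p = 0.0167), though not in a fit of the compared times alone (0.145), nor without Rs628 (0.158), Rs631 (0.171) or Rs632 (0.0686). Akr1a1, the general aldehyde reductase, fell by 0.35 at 72 h and by 0.38 at 24 h, the second being -0.15 relative to all genes.

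Akr1b8, an aldose reductase-like enzyme, read 4.51, 3.84, 4.05 and 5.75 at 1 µM and 72 h, against 6.58, 6.12, 5.62 and 6.11 at 0 µM. Only Rs632 stayed above the floor at 1 µM, and the change was -1.57 as measured (adjusted p = 0.00212), or at least 1.89-fold lower with values under 5 set to 5. At 24 h the change of -1.20 (adjusted p = 0.0333) was lost without Rs631 (0.145) or Rs632 (0.252), under quantile normalization (0.0643) and without the arrays of low signal (0.181). At 12 h its change was 0.66 without passing (adjusted p = 0.579), with 1 µM arrays between 5.34 in Rs632 and 7.46 in Rs627.

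Akr1e2, a reductase of 1,5-anhydrofructose, was the aldo-keto reductase that rose. It read 10.22, 10.02, 10.12 and 9.86 at 1 µM and 72 h, against 9.26, 9.43, 9.22 and 8.67 at 0 µM. The groups were apart, with a rise of 0.91 (SE 0.22, 1.88-fold, adjusted p = 7.24e-04). At 24 h it rose by 0.77 (adjusted p = 0.0098, and 0.117 without Rs631). In the RefSeq gene order Akr1e2 lies at one end of a cluster on chromosome 17 with Akr1c1, Akr1c13, Akr1c19, Akr1c3, Akr1c14 and Akr1c15, so its rise and the fall of Akr1c14 came from the same cluster.

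The other aldo-keto reductases did not pass at 72 h: Akr1b1 changed by -1.32 (adjusted p = 0.0699), Akr1c19 by -0.79 (0.435), Akr1c1 by -0.64 (0.891), Akr1c13 by -0.07 (0.952) and Akr7a2 by 0.35 (0.0803). Blocking on the rat, Akr1b1 (adjusted p = 8.14e-04), Akr1c19 (3.01e-04) and Akr7a2 (0.0167) passed at 72 h, and Akr1c13 passed at 24 h with a change of -0.63 (4.67e-07). Paralogs of the Akr1c cluster are alike in sequence, and how far their probe sets share RNA was not tested.

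Adh1c was the 1 alcohol dehydrogenase of the 3 with a probe set that passed the filter, and it is the classic ethanol-oxidising enzyme of liver. It averaged 12.70 ± 0.06 at 1 µM and 12.19 ± 0.37 at 0 µM at 72 h (SD, n = 4 each), with a rise of 0.52 (adjusted p = 0.0026). Its second probe set, with a mean of 7.98 over all arrays against 12.43 for the first, rose by 1.48 at 72 h and by 1.06 at 24 h, where the first gave 0.25 and did not pass (adjusted p = 0.191, and 0.0066 with the rat as a block). The mean of both rose by 0.65 at 24 h (0.0127). Both probe sets were higher at 1 µM.

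Among the 8 dehydrogenases of amino acid, folate and carnitine metabolism, 2 rose and 0 fell at 72 h, and 1 rose and 1 fell at 24 h. Of all genes tested, 26.8% were called at 72 h and 29.6% at 24 h. Aldh18a1, which makes the precursor of proline, averaged 7.41 ± 0.58 at 1 µM (n = 4) and 8.58 ± 0.16 at 0 µM (n = 3) at 24 h (SD), a fall of 1.17 on the log2 scale (adjusted p = 4.54e-04). At 72 h its change was -0.57, which did not pass (adjusted p = 0.0695), but did with rat blocks (0.00714) and, at 0.0284 to 0.0496, under quantile normalization, in a fit of the compared times alone, and without Rs632, the arrays of low signal or those of repeated positions. Aldh5a1, the succinic semialdehyde dehydrogenase of GABA breakdown, rose by 0.82 at 72 h (adjusted p = 0.0231), a call lost without Rs627 (0.163), Rs628 (0.114) or Rs632 (0.0573). The mean of its probe sets gave a smaller rise of 0.50 (0.00451). Aldh1l1, the cytosolic 10-formyltetrahydrofolate dehydrogenase, rose by 0.43 at 72 h (adjusted p = 0.0493), which was lost with any rat left out (0.0576 to 0.191) and under median centring (0.0587). Aldh6a1, of valine breakdown, rose by 0.42 at 24 h (adjusted p = 0.013, and 0.172 without Rs632). Aldh4a1, Aldh7a1, Aldh9a1 and Aldh1l2, of proline, lysine, carnitine and mitochondrial folate metabolism, passed at no time at 1 µM, with changes at 72 h of -0.01, 0.13, 0.05 and -0.03, though Aldh7a1 passed at 24 h with the block (0.20, adjusted p = 0.0204) and without Rs631 (0.32, adjusted p = 0.0284).

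Of the 7 other members, Dhrs7 and Dhrs7b rose at 72 h and 0 fell, where 11.3% of all genes rose and 15.5% fell. Dhrs7, a reductase of the endoplasmic reticulum, read 10.87, 10.47, 10.77 and 10.86 at 1 µM, against 9.72, 9.33, 9.88 and 9.75 at 0 µM. Each treated array was above all 4 at 0 µM, with a rise of 1.07 (SE 0.17, 2.10-fold, adjusted p = 2.73e-07). At 24 h the rise was 0.65 (adjusted p = 0.00413), lost without Rs627 (0.0738) or Rs632 (0.13). Dhrs7b, an enzyme of ether lipid synthesis, rose by 0.48 at 72 h (adjusted p = 0.0211), lost without Rs627 (0.149) or Rs632 (0.103). Dhrs13 fell by 0.70 at 24 h (adjusted p = 0.00701), a call lost without Rs631 (0.0968) or Rs632 (0.228) and without the arrays of low signal (0.247, with a change of -0.34). The mean of its probe sets gave -0.37 there, which did not pass (0.0989). At 72 h its change of -0.42 did not pass (0.0893), but did with rat blocks (0.0388), under quantile normalization (0.0164) and with the mean of its probe sets (0.0208). It also passed without the arrays of low signal (0.0199) or of repeated positions (0.0353). Dhrs1, Dhrs11, Dhrsx and Aldh16a1 passed in none of the 25 comparisons of a concentration at a time, but Aldh16a1 did at 10 µM and 6 h in the fit with rat blocks (-0.62, adjusted p = 0.0238). The 72 h change of Dhrsx at 1 µM, 0.34, did not pass here (adjusted p = 0.118), but passed under quantile normalization (0.40, adjusted p = 0.00103), in a fit of the compared times alone (0.00953), and without the arrays of low signal (0.0134) or of repeated positions (0.00805).

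Some hepatocyte markers and some stellate cell markers moved at 72 h too. At 1 µM 3 of 7 hepatocyte markers were lower and 0 higher, with Serpina1 at -0.88, Fgb at -0.86 and Ttr at -0.28, and their summed intensity was 32800 to 36300 at 1 µM against 41300 to 44200 at 0 µM (at 24 h 39000 to 43100 and 42700 to 46900), while Alb changed by 0.05 and Hnf4a by 0.22. Of 5 stellate cell markers tested, Col1a2 (-0.75) and Acta2 (-0.55) were lower and 0 higher, and the median change over the 5 was 0. Their summed 8-marker intensity was 192 to 350 at 1 µM and 219 to 276 at 0 µM. Of 1 macrophage, 1 endothelial and 4 bile duct markers tested, 0 were called, with median changes of 0.33, 0.23 and -0.59. The 3′ minus 5′ signal of actin, a measure of RNA quality, was 1.97 at 1 µM and 1.66 at 0 µM, while that of Gapdh was 0.34 and 0.35. The part of the markers and of RNA quality in the members' changes was not tested. In these bulk cultures fewer cells of a type and less RNA per cell cannot be told apart.

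Across concentrations, most calls came from 0.1 µM upward. Averaged over the 5 times, 0 members passed at 0.001 µM (limma, 2 at an unadjusted p under 0.05, 0% of all genes called) and 1 at 0.01 µM (0.69%), which was Dhrs4 with a rise of 0.20 (adjusted p = 0.00195, and 0.605 without Rs631). At 0.1 µM 7 rose and 4 fell (14.3% of all genes called, 6.34% higher and 7.94% lower), or 19 in all with the rat as a block (28.4%). At 1 µM 14 rose and 7 fell (35.4%, 11.7% higher and 23.6% lower), and at 10 µM 11 rose and 8 fell (39.4%, 11.7% higher and 27.7% lower). All 11 called at 0.1 µM were also called at 1 and 10 µM: Akr1a1, Akr1c14, Akr1e2, Aldh1a1, Aldh2, Aldh3a1, Aldh3a2, Aldh3b1, Dhrs4, Dhrs7 and Rdh16. These comparisons share the arrays at 0 µM. Leaving out 1 rat ended the 0.1 µM call of Akr1a1 (Rs627 or Rs632), Akr1e2 (Rs631), Aldh3a1 (Rs627 or Rs631), Aldh3b1 (Rs631 or Rs632), Dhrs7 (Rs632) and Rdh16 (Rs627 or Rs632), with adjusted p-values of 0.0507 to 0.29. In the direct test of 10 µM against 1 µM, 0 members and 0% of all genes passed (limma, with 0 members at an unadjusted p under 0.05), and the 40 changes ran from -0.68 to 0.41.

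At 72 h Dhrs4 passed from 0.01 µM upward. It averaged 9.77 ± 0.15 at 0 µM, 9.88 at 0.001 µM, 10.16 at 0.01 µM, 10.60 at 0.1 µM, 10.90 ± 0.10 at 1 µM and 10.89 at 10 µM (SD, n = 4 at 0 and 1 µM). The changes against 0 µM were 0.11, 0.38, 0.82, 1.13 and 1.12, and all but the first passed. At 0.01 µM the arrays read 10.30, 9.98, 10.27 and 10.07, above all 4 at 0 µM, and Dhrs4 was the 1 member called there (0.418% of all genes), or 1 of 3 with the rat as a block, beside Akr1b8 and Aldh3b1 (2.26%). The 1 and 10 µM means lay within 0.01 of each other, less than the spread between rats.

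For Rdh7 at 72 h the changes were 0.31, 0.71, 1.49, 1.80 and 1.55 from 0.001 to 10 µM, and those from 0.1 µM upward passed. At 72 h the 0.1 and 10 µM groups lack Rs627, the highest rat for Rdh7. Its changes there are thus not from the same rats as at 1 µM, and the step from 1.80 to 1.55 is not read as a drop. Rdh16 changed by 0.09, 0.07, 0.55, 1.28 and 1.5, and Akr7a3 by -0.10, -0.29, -0.38, -1.06 and -1.44, both passing at 1 and 10 µM. Aldh3b1 changed by -0.30, -0.78, -1.57, -1.67 and -1.87 and passed from 0.1 µM upward, with all 10 arrays at 0.1, 1 and 10 µM below the floor. Dhrs7 (0.01, 0.24, 0.67, 1.07 and 1.12) passed from 0.1 µM and Akr1e2 (0.12, 0.25, 0.53, 0.91 and 0.89) from 1 µM. Whether these curves differ in their midpoints was not tested.

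**Figure D3:**
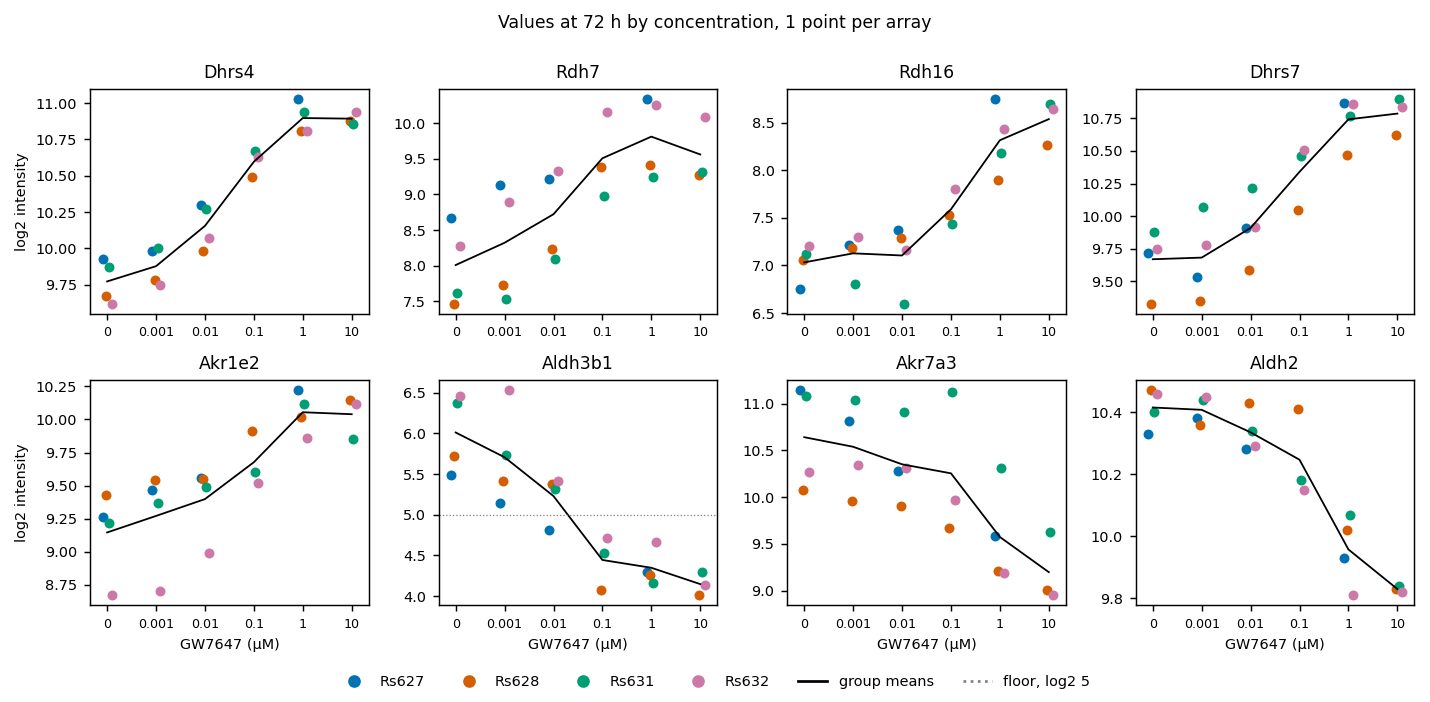
Log2 intensity of 8 members at 72 h on each array by GW7647 concentration in µM, coloured by rat, with group means joined and log2 5 dotted for Aldh3b1. Dhrs4 is at 9.77 on average at 0 µM and 10.90 at 1 µM, and Aldh3b1 lies below 5 on all arrays from 0.1 µM upward. Rs627 has no array at 0.1 or 10 µM.

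At 72 h and 0.1 µM 7 members passed (8.82% of all genes called), or 17 with the rat as a block (25.3%), and at 10 µM 18 passed (28%), or 25 with the block (41.1%). Of the 19 called at 1 µM and 72 h, 17 were called in the same direction at 10 µM, all but Aldh1a2 and Aldh1l1, and Aldh18a1 (-0.72) was called at 10 µM alone. At 24 h 4 passed at 0.1 µM (4.32%), or 17 with the block (12.9%), and 11 at 10 µM (17.1%), or 21 with it (34.2%). At 12 h Dhrs4 passed at 0.1 µM (0.48, 1.55% of all genes called), or 4 members with the block (3.34%), and 5 members passed at 10 µM (7.95%), or 14 with the block (16.5%). At 6 h and 10 µM 3 passed (4.3%), or 9 with the block (14.5%). At 6 h and 0.1 µM 0 did by limma (0.916%, with 5 at an unadjusted p under 0.05), or 2 with the block, Aldh3a2 and Dhrs4 (1.73%). At 2 h 0 passed by limma at any concentration, with 0.0113% of all genes called at 0.01 µM, 0.192% at 0.1 µM and 1.02% at 10 µM (0, 1 and 1 members at an unadjusted p under 0.05). At 0.01 µM 0 passed at 12 and 24 h (0.0339% and 0.136% of all genes called, 1 member each at an unadjusted p under 0.05), and with the block Dhrs4 did at 24 h (0.418%). In all, 23 of 40 members were called in at least 1 of the 25 comparisons (44.8% of all genes were) and 17 in none. With the block 34 members were (70.2% of all genes).

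Aldh3a1, a dehydrogenase of aromatic and lipid aldehydes known as a target of the aryl hydrocarbon receptor, was the member whose early values stood out. At 6 h and 10 µM it read 5.42, 7.66 and 7.05 in Rs627, Rs631 and Rs632, against 5.03, 4.70, 4.35 and 4.49 at 0 µM in the 4 rats. The rise of 2.07 (SE 0.61, adjusted p = 0.0351) made it the 1 member that passed at 6 h by more than 1 log2 unit, though 3 of the 4 arrays at 0 µM were under the floor. At 6 h and 1 µM it read 5.03, 7.23, 7.34 and 4.48, so Rs628 and Rs631 were high and Rs627 and Rs632 were at their 0 µM level, and the change of 1.38 did not pass (adjusted p = 0.378). At 12 h and 1 µM Rs628 read 6.96 and the others 4.46 to 4.62.

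Over all concentrations above 0 µM, 13 of 17 arrays exceeded the floor at 2 h, 12 of 16 at 6 h, 6 of 14 at 12 h, 2 of 18 at 24 h and 0 of 18 at 72 h. At 0 µM 1 of 3, 1 of 4, 0 of 3, 0 of 3 and 0 of 4 arrays did so. Averaged over the times Aldh3a1 rose by 1.01 at 0.1 µM (adjusted p = 0.00981), 0.79 at 1 µM (0.0162) and 1.20 at 10 µM (3.63e-04), and its changes at 0.001 and 0.01 µM were 0.60 and 0.69 without passing. The call at 1 µM was lost without Rs628 (0.49, adjusted p = 0.18) or Rs631 (0.70, adjusted p = 0.111), and that at 0.1 µM without Rs627 (0.0985) or Rs631 (0.227). It lay above the floor on 2 of 17 arrays at 0 µM, so it passed the filter only through treated arrays where it was high. Its p-values are therefore no independent support for a rise, and the size of its changes is not well measured. By the rule for patterns alike, the genes whose 30 group means followed it most closely were Ceacam1 (Pearson r = 0.886), Cyp1a1 (0.885), Reps1 (0.862), Dst (0.86) and Cyp1b1 (0.858). These r are a description over 30 groups that share rats and culture times.

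**Figure D4:**
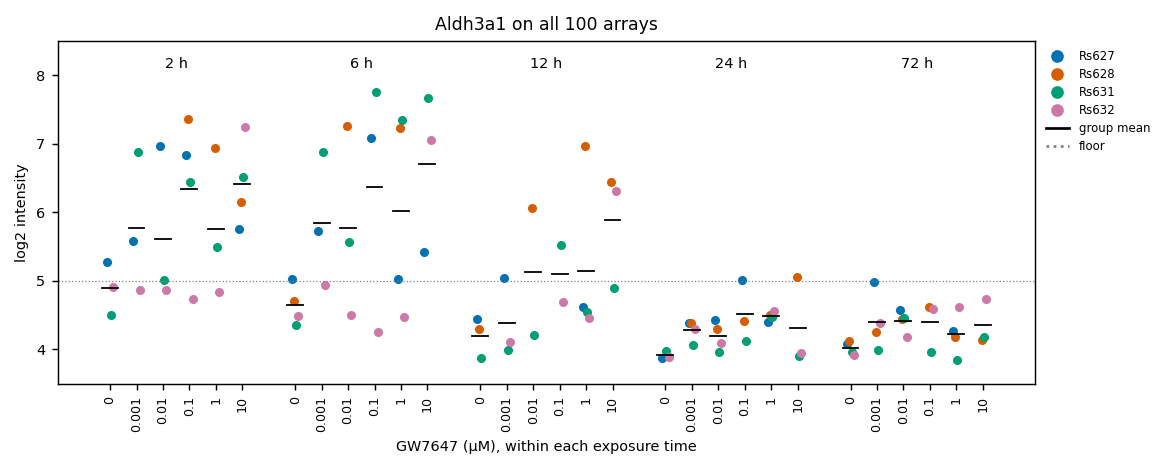
Log2 intensity of Aldh3a1 on all 100 arrays by GW7647 concentration in µM within each exposure time, coloured by rat, with group means as bars and the floor of log2 5 dotted. The highest arrays read 7.36 at 2 h, 7.75 at 6 h and 6.96 at 12 h, and 0 of 18 treated arrays exceed 5 at 72 h.

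Some members differed widely between rats. Akr1c1 spanned 6.44 log2 units between the lowest and highest rat in the model with the rat as a block. This range was the widest among the members and stood at percentile 100, as rounded, among all genes tested. The median range was 0.37 over the members and 0.31 over all genes. Akr1c1 read 8.12 to 10.27 in Rs627 (22 arrays) and 8.63 to 10.42 in Rs628 (21 arrays), against 2.98 to 5.78 in Rs631 (30 arrays) and 2.74 to 4.21 in Rs632 (27 arrays). Rs627 and Rs628 were thus high on each array and Rs631 and Rs632 at or near the floor. At 24 h, where 0 µM lacks Rs628, its change at 1 µM was 0.76, and -0.34 with the rat as a block, neither passing. Its cluster neighbours Akr1c19 and Akr1c13 split the same rats less widely, with ranges of 1.88 and 1.55. Akr1c19 had medians of 8.72 and 8.48 in Rs627 and Rs628 and of 7.27 and 6.82 in Rs631 and Rs632, and Akr1c13 of 10.86 and 10.67 and of 9.57 and 9.30. Akr1b1 (1.42), Dhrs1 (1.25, with Rs631 lowest) and Rdh7 (1.12) followed. The ranges are a description with no test.

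**Figure D5:**
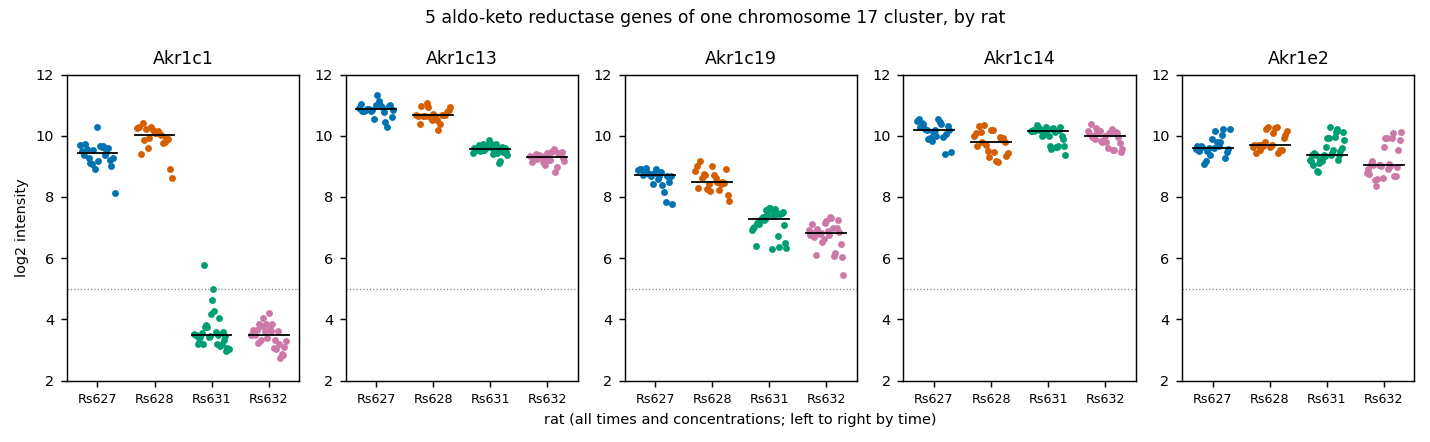
Log2 intensity of 5 aldo-keto reductase genes of the chromosome 17 cluster on all arrays of each rat, with the rat's median as a bar and the floor dotted; within a rat, arrays run left to right by time and concentration. Akr1c1 lies at 8.12 or more in Rs627 and Rs628 and at 5.78 or less in Rs631 and Rs632, while the rats' medians run from 9.80 to 10.20 for Akr1c14 and from 9.04 to 9.71 for Akr1e2.

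Without the agent, no member passed the test for culture time. Against 2 h, 0 members passed at 6, 12, 24 or 72 h at 0 µM (limma, 1, 1, 0 and 1 at an unadjusted p under 0.05), while 1.5%, 1.79%, 1.41% and 3.4% of all genes did. The 2 h group at 0 µM lacks Rs628. Blocking on the rat, Rdh14 was higher at 6 h by 0.43 (adjusted p = 0.0362, 4.4% of all genes called), and 2 members were lower at 72 h (13%), Dhrs4 with a change of -0.20 (adjusted p = 0.0419) and Aldh7a1 with -0.22 (0.043). In the test of whether the change at 1 µM was different at 72 h from 2 h, 5 were higher and 3 lower (8.66% of all genes called, 4.4% higher and 4.26% lower), or 18 with the block (17.9%). They were Dhrs4, Dhrs7, Rdh16, Rdh7 and Adh1c upward and Aldh2, Aldh3b1 and Akr1a1 downward.

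Genes of adjoining pathways, from lists set by function with earlier results of these data known, were tested in the same fit. At 1 µM and 72 h 26.8% of all genes were called, 11.3% higher and 15.5% lower. No test set the lists against that share. Of 12 retinoid-handling genes tested, 4 rose and 1 fell at 1 µM and 72 h: the receptor Rxrg by 2.15, the retinol saturase Retsat by 2.11, Dgat1, which esterifies fatty acids and retinol, by 1.47, and the carrier Rbp4 by 0.19, while its plasma partner Ttr changed by -0.28. Of 21 other carbonyl and alcohol enzymes, 10 rose and 1 fell. Cyp2e1, the ethanol-oxidising cytochrome, rose by 2.94, with a 0 µM mean of 4.25 under the floor, the hydroxyacid dehydrogenase Adhfe1 by 0.99, the peroxisomal Hsd17b4 by 0.81 and catalase (Cat) by 0.77, and Hsd11b1, which reactivates glucocorticoids, changed by -0.58. Of 10 enzymes that release aldehydes, 2 rose and 1 fell: Hacl1, the peroxisomal lyase that yields fatty aldehydes in α-oxidation, by 3.30 and Aoc1 by 0.81, and Maob changed by -0.65. Both group means of Aoc1, 4.83 at 1 µM and 4.02 at 0 µM, lie under the floor. Aox1 (0.49, adjusted p = 0.72) and Hsd17b2 (1.38, adjusted p = 0.0755) did not pass.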

How the data were processed

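Total RNA of each culture was amplified, biotin-labelled with a 3′ expression kit and hybridised to an Affymetrix rat array, per the labels' protocols. The authors deposited log2 intensities, with a single value for each probe set on each array. Per the submitters' processing notes, GCRMA and Partek were used, and their versions and settings are not given in the sources used here. The values were used without further scaling. Of 31139 probe sets, 19069 had 1 gene symbol in the platform annotation, 572 several and 11498 none. All 52 members were found in RefSeq under the same symbol.

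All 100 arrays entered a single limma 3.58.1 fit of 30 group means (R 4.3.3, 70 residual degrees of freedom), two-sided, with Benjamini-Hochberg adjustment over the 8843 genes tested, per comparison, at 0.05. Values of 5 or less were treated as the floor. The labels give each array a biological replicate number, read here as a rat. The numbers were taken to pair the arrays because same-numbered arrays deviated together in the data, the lowest correlation within a rat being 0.52. A fit with the rat as a replicate block was run beside each comparison, and its counts stand beside the others where they moved by over 1.5 times. The fit was tested on simulated data, whose settings are not given here. Without the block it treats the 100 arrays as independent, although arrays of 1 rat deviated together. The number of rats, 4, limits the precision along with that of arrays, most of all for changes averaged over the times.

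All 40 tested members may be named by a fixed rule, and array values were given for the 8 with the largest averaged change at 1 µM. Values of further members were added after their values were seen. The members, gene lists and tests were chosen with earlier results of these data known. Alternatives were no filter, a filter at log2 7, quantile normalization, median centring, an intensity trend with robust prior, the mean of a gene's probe sets, a 1.5-fold minimum, only the compared times, and leaving out each rat, arrays of low signal, of repeated positions, with labels ending in 2, and the 12 h pair. Figures used Python 3.11.15 and matplotlib 3.10.9.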

Additional observations from a re-analysis of the deposited data

Results flagged for a closer look

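In 48 tests for a lone array, each of 1 member in 1 group of 4 arrays, 2 were marked, and chance marks about 1 in 20. The members were read on the same arrays, so these tests are not independent. Aldh3a1 read 6.96 in Rs628 at 1 µM and 12 h, with the next array at 4.62. Aldh1a1 read 11.66 in Rs631 at 1 µM and 12 h, below the next at 11.76, a gap of little size in a group whose arrays lie close together.

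The change at 1 µM differed between 72 h and 2 h for 8 members by the test of the difference itself (limma). The change was higher at 72 h for Dhrs4 by 1.04 (adjusted p = 3.34e-09), Dhrs7 by 1.05 (0.00294), Rdh16 by 1.19 (0.00428), Rdh7 by 2.18 (0.0209) and Adh1c by 0.64 (0.0395). It was lower at 72 h for Aldh2, with a difference of -0.48 (0.00195), Aldh3b1, with -1.70 (0.018), and Akr1a1, with -0.32 (0.0451). Of these, Dhrs4 and Aldh2 passed with each rat left out in turn. The lowest adjusted p without 1 rat that missed the threshold was 0.0564, for Rdh16 without Rs627, and Adh1c reached 0.221 without Rs628, Akr1a1 0.318 without Rs627 and Dhrs7 0.0783 without Rs632.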

How the results depend on the processing

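None of the member calls compared, and none of the averaged changes at 1 µM of the 8 members with array values, turned its direction under the alternatives run. Changes that did not pass were not compared in this way, and that of Akr1c1 at 24 h did turn with the rat as a block. Counts of members called moved by over 1.5 times in 28 of 209 comparisons with an alternative, and the cause was not tested. With the rat as a replicate block, the count at 1 µM was 4 in place of 2 at 6 h, 9 in place of 4 at 12 h and 26 in place of 16 at 24 h, 19 in place of 11 at 0.1 µM averaged, 18 in place of 8 for 72 h against 2 h, and 2 in place of 0 for 72 h against 2 h at 0 µM. It lost no call at 24 or 72 h. A 1.5-fold minimum left 0 at 6 h, 2 at 12 h, 11 at 72 h, and averaged over the times 0 at 0.01 µM, 1 at 0.1 µM, 4 at 1 µM and 5 at 10 µM. It ended the averaged calls of Akr1e2 (0.54), Akr7a3 (-0.58), Aldh1a1 (0.54) and Rdh16 (0.56). The mean of a gene's probe sets left 1 at 6 h and 0 at 0.01 µM, and gave 1 for 72 h against 2 h at 0 µM, where no filter gave 2. Leaving out 1 rat gave 0 to 1 at 6 h, 8 to 18 at 24 h, 7 to 13 at 0.1 µM, 0 to 1 at 0.01 µM and 3 to 5 for 72 h against 2 h. For the 1.5-fold minimum, the mean of probe sets, no filter and the rats left out, the share of all genes called is not given here. Those counts do not set the family apart from other genes. The averaged call of Aldh3a1 was lost without Rs628 (0.49) or Rs631 (0.70) and that of Rdh7 without Rs632 (0.63).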
